A study of Bos taurus with 2 samples.

Results

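The HOX genes of clusters A, B, C and D were followed through single cells of day 25 bovine chimeric embryos. Members were all rows of the count table whose symbol was HOX followed by a cluster letter and a paralog number from 1 to 13, antisense rows left out, which gave 37 of 17846 genes. There were 11 rows of HOXA, 9 of HOXB, 9 of HOXC and 8 of HOXD, on chromosomes 4, 19, 5 and 2. HOXB13 and HOXD12 were not analysed here.

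HOX genes encode homeodomain transcription factors that lie in 4 genomic clusters, and their order along each cluster follows the order in which they are expressed from head to tail. Low paralog numbers are used in the hindbrain and high ones in the trunk, limbs and tail, while the forebrain and midbrain lack HOX expression and express factors such as OTX2. In the hindbrain HOXA2 has the most anterior border of the family, HOXB2 and the group of paralog 3 follow, and each takes part in segment and neuron identity. HOX proteins bind DNA together with PBX and MEIS cofactors, and retinoic acid, CDX factors and Polycomb and Trithorax proteins control where the genes are open.

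The study profiled day 25 bovine embryos that had received bovine embryonic stem cells, and it has 1 group of 2 libraries, called replicate 1 and replicate 2. All cells therefore came from chimeras, with no unmanipulated embryo beside them. Embryos were dissociated with papain, and cells were sorted, with no gate given in the labels, and captured with 10x Genomics 3′ v3.1 chemistry, which counts unique molecular identifiers (UMI, each standing for 1 captured transcript) at transcript 3′ ends. The labels do not say that the libraries came from separate embryos, so p-values measure the spread between these libraries, which may be technical.

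Replicate 1 held 1973 barcodes and 11182089 UMI, and replicate 2 held 2464 barcodes and 15427708 UMI. After filtering, 1842 and 2310 cells were grouped into 22 clusters without any HOX gene. The 16 clusters with at least 20 cells in each library were tested. Of these, 14, numbered 0 to 13, carried neural markers and held 3792 of 4152 cells. Clusters 0, 1, 2, 3, 6, 8, 9 and 12 were neural progenitor-like, 5 and 10 neuron-like, 4 and 13 floor plate-like, 7 roof plate-like and 11 noradrenergic or autonomic neuron-like. Cluster 15 was mesenchyme-like, with 7 of 13 mesenchyme markers detected, and cluster 14a stayed unnamed because it carried both mesenchyme and cardiomyocyte markers. Cells with the same barcode sequence occurred in both libraries for 6 barcodes. Leaving these cells out changed the HOX calls only from 36 to 35 higher and not at all from 27 lower.

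HOX transcripts were sparse. All 37 members had at least 1 UMI, and together they had 3301 UMI, 1332 in replicate 1 and 1969 in replicate 2. HOXA rows held 1460 of these, HOXB rows 1399, HOXC rows 224 and HOXD rows 218. HOXB2 with 1011 UMI, HOXA2 with 828, HOXA3 with 499, HOXB3 with 139 and HOXD3 with 124 were the 5 members above 100.

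With fewer than 10 UMI in all, 15 members were too sparse for more than a total. Among them HOXD1 had 9, HOXA11 7, HOXA4 and HOXA13 5 each, HOXD11 4, HOXB1, HOXC5, HOXC10, HOXC13 and HOXD13 3 each, HOXD8 2, and HOXC11, HOXC12 and HOXD10 1 each. For paralogs 1, 11, 12 and 13 the gene with the most UMI was therefore below 10: HOXD1, HOXA11, HOXC12 and HOXA13. The filter on low counts was passed by 20 of 37 members in at least 1 cluster and by 6 in every cluster. HOXA6, HOXA7, HOXB5 and HOXD9 passed in cluster 14a alone, HOXB7 in cluster 15 alone, and HOXC4, HOXC6 and HOXC9 in these clusters only, where they were high. In RefSeq 9 pairs of HOX gene models overlap, among them HOXA3 with HOXA4 and HOXA5, HOXA5 with HOXA6, HOXB3 with HOXB4, HOXB5 and HOXB6, and HOXD3 with HOXD4, so reads could be split between these 14 genes in a way that cannot be checked here.

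**Figure D1:**
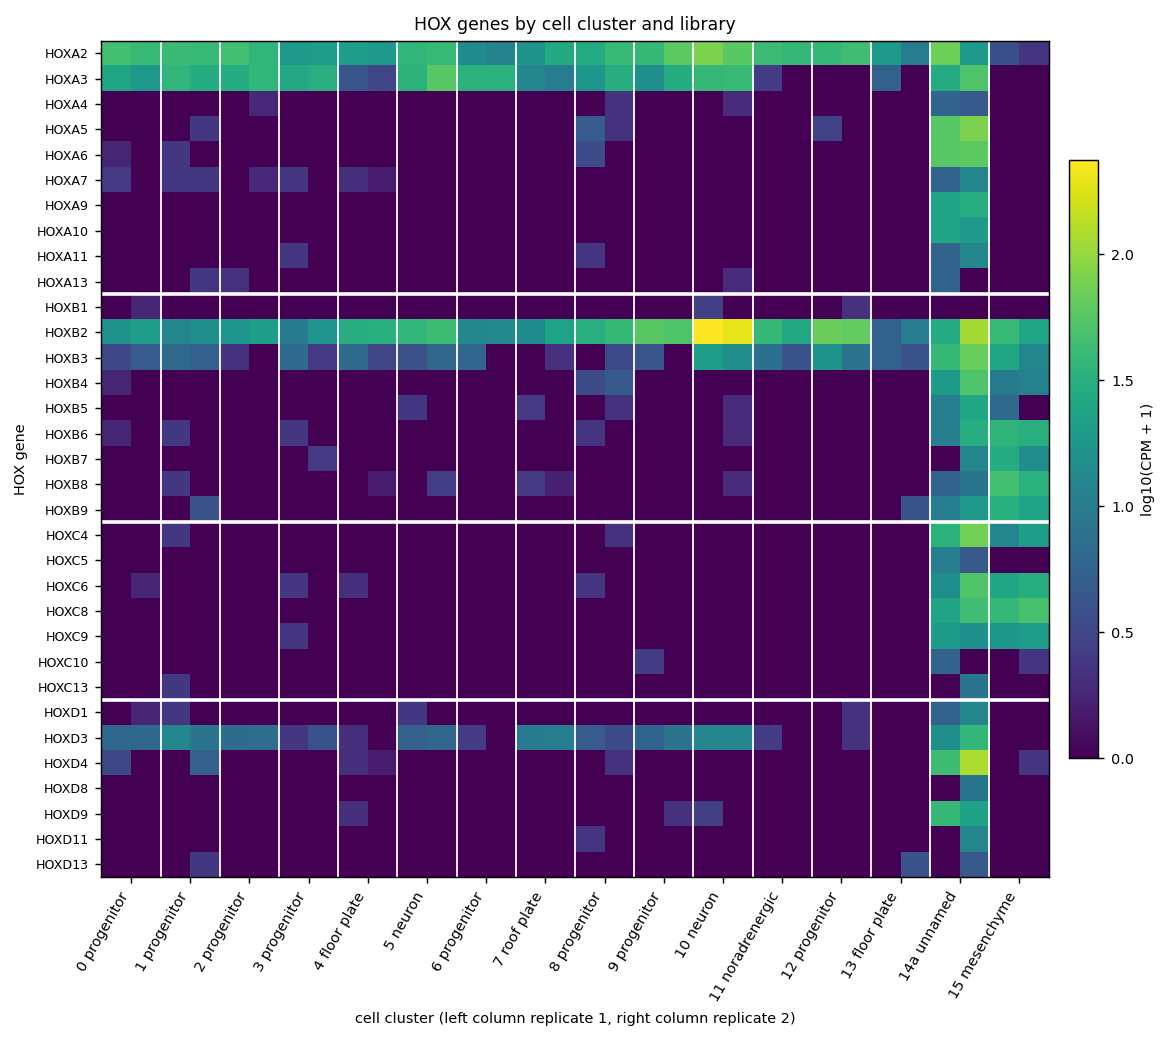
Level of each of the 33 HOX genes with at least 2 UMI as log10(CPM + 1) (CPM, counts per 1e6 UMI of the cluster and library) in the 16 tested clusters, with replicate 1 in the left and replicate 2 in the right column of each cluster. Neural clusters 0 to 13 show HOXA2, HOXB2 and HOXA3 with little above paralog 3, cluster 14a shows genes of all 4 HOX clusters, and cluster 15 shows HOXB and HOXC genes.

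The neural cells expressed the hindbrain end of the HOX series. Of 2449 HOX UMI in clusters 0 to 13, paralogs 1 to 3 held 96.9%, with 8 UMI of paralog 1, 1705 of paralog 2 and 660 of paralog 3. The share was 96.1% in replicate 1 and 97.5% in replicate 2. Summed HOX levels were 105.7 and 107.5 CPM (mean 106.6 ± 1.27, SD, n = 2), so the libraries differed little. Of this sum the HOXA cluster gave 56.5 and 55.4 CPM and the HOXB cluster 43.0 and 46.6, whereas the HOXD cluster gave 5.50 and 5.34 and the HOXC cluster 0.712 and 0.229.

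HOX genes of higher paralog number were close to absent from the same cells. The 29 members of paralogs 4 to 13 together had 76 UMI, at 4.17 CPM in replicate 1 and 2.67 in replicate 2. The 31 erythroid-like cells had 1 such UMI, or 4.42 and 0 CPM. The neural level was thus the lower in replicate 1 and the higher in replicate 2. With 1 UMI the erythroid-like cells cannot show whether the neural level stood above a background. The most counted in neural cells was HOXD4 with 9 UMI, then HOXA7 with 8. HOXC8, a thoracic-level gene, had 0 of its 69 UMI in neural clusters, and HOXA9 and HOXA10 had none of their 13 and 10.

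Counted per cell, HOX detection was limited by depth. With every cell thinned to 2000 UMI, 285 of 1540 neural cells of replicate 1 had a HOX UMI (18.5%, exact 95% interval 16.6 to 20.5) and 314 of 1877 of replicate 2 (16.7%, 15.1 to 18.5), with 179 and 196 shallower cells left out. Among erythroid-like cells, with median depths of 27366 and 23270.5 UMI before thinning, 0 of 9 and 0 of 20 thinned cells had a HOX UMI. A UMI of paralog 4 or above was the highest in 10 and 9 of the thinned neural cells. HOXA2 and HOXA3, neighbours on chromosome 4, were seen together in 6 of 98 and 6 of 125 cells with a HOXA2 UMI. In cells without a HOXA2 UMI, HOXA3 was seen in 4.09% and 3.77%, against 6.12% and 4.80% with it.

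OTX2, the forebrain and midbrain factor, was seen in the same cells as HOX genes. Of 42 OTX2-positive neural cells in each library, 10 and 8 also had a HOX UMI, or 23.8% and 19.05%, beside 18.4% and 16.7% of neural cells without OTX2. These are few cells, and both genes are low. OTX2 was highest in roof plate-like cluster 7, at 46.7 and 33.6 CPM.

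Among neural clusters the sharpest HOX difference lay in neuron-like cluster 10, led by PENK, CRABP1, DLL3, INSM1 and HES6, genes of newly formed neurons. HOXB2 stood at 236 CPM in replicate 1 and 193 in replicate 2, against 25.2 and 28.4 in all other cells. It was seen in 130 of 183 cells of the cluster. Both values lie far above every other tested cluster, where HOXB2 ranged from 4.42 to 113 CPM. HOXB2 was higher by 3.21 on the log2 scale (SE 0.16, adjusted p = 6.65e-89, edgeR quasi-likelihood test, Benjamini-Hochberg over all genes tested, higher in both libraries).

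In cluster 10, 5 of the 6 HOX genes tested were higher and 0 lower, where 24.0% of the genes left out of the clustering were called higher and 25.8% lower. HOXA2 was at 79.2 and 58.0 CPM against 29.9 and 28.4 (log2 difference 1.44, SE 0.20). HOXA3 was at 36.8 and 39.3 CPM against 17.7 and 17.2 (1.38, SE 0.26). HOXB3, which acts with HOXA3 in the posterior hindbrain, was at 20.25 and 14.04 CPM against 5.13 and 4.01 (2.12, SE 0.46). HOXD3 was at 11.05 and 11.23 CPM against 4.18 and 4.22 (1.64, SE 0.53), with adjusted p from the edgeR quasi-likelihood test between 2.42e-11 for HOXA2 and 0.00556 for HOXD3. HOXB8, the sixth, had 1 UMI. Per cell after thinning, 40 of 64 and 50 of 116 cells had a HOX UMI (62.5% and 43.1%), and in each of them the highest paralog was 1 to 3.

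The other neuron-like cluster, cluster 5, led by MGAT4C, LRRTM4, NRXN3 and EBF1, differed from cluster 10 in HOXB2. In cluster 5 only HOXA3 of 6 tested genes was called higher, at 33.0 and 56.0 CPM against 17.6 and 17.2 (log2 difference 1.37, SE 0.28, edgeR quasi-likelihood adjusted p = 5.01e-06), with 24.2% of left-out genes called higher. HOXB2 stood there at 35.9 and 42.4 CPM and HOXA2 at 35.9 and 39.0. Set directly against cluster 5 in a joint fit, a comparison chosen after its values had been seen, cluster 10 was higher in HOXB2 by 2.68 (SE 0.26, adjusted p = 5.16e-14), in HOXB3 by 2.33 (SE 0.77) and in HOXA2 by 1.08 (SE 0.30). These were 3 of 16 tested HOX genes, where 23.9% of left-out genes were called higher. Most of the 16 are of paralogs 4 to 13, which were close to absent from neural cells and could hardly be called here. HOXA3 differed by 0.03 (SE 0.33), which misses the threshold and leaves a wide interval. The clusters also differed in ribosomal protein transcripts, 13.9% and 15.7% of UMI in cluster 10 and 1.76% and 1.93% in cluster 5, and in median depth, 8512 and 9426 against 4295 and 3917 UMI, whose part in the result was not tested.

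**Figure D2:**
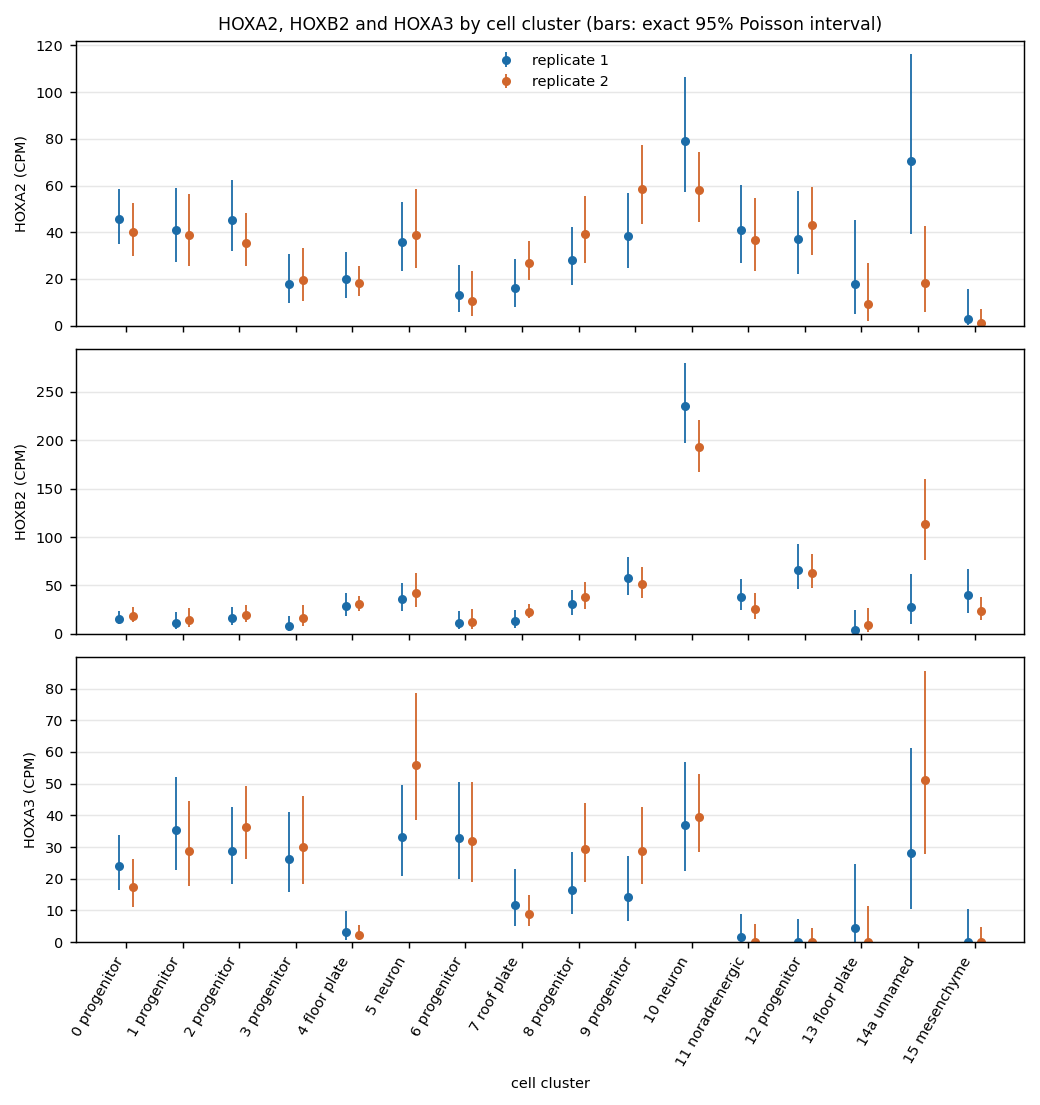
Levels of HOXA2, HOXB2 and HOXA3 in CPM on linear axes for the 16 tested clusters, with 1 point per library and exact 95% Poisson intervals as bars, which cover counting error only. HOXB2 reaches 236 and 193 CPM in cluster 10, and HOXA3 is at or near 0 in clusters 4, 11, 12, 13 and 15.

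HOXA3 marked a second division among neural clusters. It had 0 UMI in progenitor-like cluster 12, against 19.5 and 19.8 CPM in all other cells, and 3 counts over the cluster would be 2.19 CPM, so it was at least 8.99-fold lower (edgeR quasi-likelihood adjusted p = 3.00e-08). In noradrenergic or autonomic neuron-like cluster 11 it had 1 UMI, at 1.58 and 0 CPM (adjusted p = 1.67e-05, same test). The floor plate-like clusters had 7 UMI at 3.33 and 2.11 CPM in cluster 4 (log2 difference -2.63, SE 0.46) and 1 UMI at 4.42 and 0 CPM in cluster 13 (-3.43, SE 1.04). These clusters were thus low in both libraries, and they were not clusters without HOX transcripts.

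Cluster 12, led by COL25A1, CHRM3, EDIL3 and GATA2, kept paralog 2. Its HOXB2 stood at 66.3 and 63.1 CPM against 34.0 and 38.5 (log2 difference 1.03, SE 0.21, edgeR quasi-likelihood adjusted p = 1.79e-05) and its HOXA2 at 37.0 and 43.2 against 32.1 and 29.7 (0.62, SE 0.25, adjusted p = 0.0488, same test). These were 2 of 7 tested genes higher and HOXA3 alone lower, where 11.8% and 14.5% of left-out genes were called. HOXA2 lost its call with limma-trend, with DESeq2, and in edgeR without the filter, without library as a term, without TMM or without the shared barcodes, and kept it only with the mean of the other clusters as reference. EMX2 was higher there too, at 48.7 and 37.4 CPM against 1.14 and 2.43, a member of the forebrain and midbrain list.

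Cluster 11, with DBH and HAND2 among its markers, had paralog 2 near the level of other cells, HOXA2 at 41.1 and 36.8 CPM and HOXB2 at 38.0 and 26.1. HOXA3 was the only 1 of 6 tested genes called, where 23.0% of left-out genes were called lower and 20.3% higher. Against neuron-like cluster 10, again chosen after values had been seen, it was lower in HOXA3 by a log2 difference of -5.45 (SE 0.74), in HOXB2 by -2.82 (SE 0.27) and in HOXA2 by -0.87 (SE 0.30, adjusted p = 0.0423, edgeR). These were 3 of 16 tested HOX genes, where 6.79% of left-out genes were called lower and 5.53% higher. Here too most of the 16, of paralogs 4 to 13, were too sparse in neural cells to be called.

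The floor plate-like clusters, both with SHH, NTN1, CORIN, FOXA2 and SPON1 among their markers, differed from each other in HOXB2. Cluster 4 had HOXB2 at 28.9 and 30.6 CPM and cluster 13 at 4.42 and 9.22, a log2 difference of 2.37 (SE 0.61, adjusted p = 0.000925, edgeR joint fit, chosen after values had been seen). HOXA2 was at 20.0 and 18.5 CPM in cluster 4 and at 17.7 and 9.22 in cluster 13 (0.92, SE 0.57, not called). HOXB2 was the only 1 of 16 HOX genes called between them, where 22.8% of left-out genes were called higher and 23.9% lower. Most of the 16, of paralogs 4 to 13, were again too sparse in neural cells to be called. Against all other cells 4 of 10 tested HOX genes were lower in cluster 4 and 3 of 7 in cluster 13, beside 23.9% and 16.0% of left-out genes. Of those in cluster 4, HOXB6 and HOXC8 had 0 UMI there. Cluster 15, a part of the reference, held 69.2% and 72.5% of the UMI of these genes, and its part in the calls was not tested. Ribosomal protein genes took 24.4% and 23.0% of UMI in cluster 4 and 3.05% and 2.89% in cluster 13, and the part of this difference was not tested.

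Other neural clusters also differed in ribosomal protein transcripts. Clusters 0, 1, 2, 3, 5, 6 and 13 had under 10% of their UMI in ribosomal protein genes, clusters 4, 7, 8, 9, 10 and 12 had more, and cluster 11, at 8.98% and 10.6%, was put in neither set. HOXB2 made up 31.5% and 38.5% of the HOXA2 and HOXB2 UMI in the low clusters, from 260 and 270 UMI, and 65.2% and 62.3% in the high clusters, from 394 and 690. The exact 95% intervals were 25.9 to 37.6 and 32.7 to 44.6 in the low clusters, and 60.3 to 69.9 and 58.6 to 65.9 in the high ones. Cluster 10 gave 334 of the HOXB2 UMI, and clusters 7 and 8 in the high set were at 45.0% and 45.8% and at 52.2% and 49.2%.

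HOXB2 was called lower in progenitor-like clusters 0, 1, 2, 3 and 6, in floor plate-like cluster 13 and in roof plate-like cluster 7. In clusters 0, 1, 2, 3 and 6 it ranged from 8.32 to 19.9 CPM over both libraries, against 36.9 to 41.9 in the cells outside each cluster. In cluster 7 it stood at 13.1 and 22.8 CPM. HOXB2 was higher in progenitor-like cluster 9, at 57.3 and 51.5 CPM, as was HOXA2 at 38.2 and 58.6, 2 of 6 tested genes where 11.4% of left-out genes were called higher. HOXA2 itself was lower in clusters 3, 6 and 13, at 9.22 to 19.4 CPM. By cluster, 3 of 8 tested members were lower in cluster 0 and 1 of 8 in cluster 1, beside 31.6% and 29.8% of left-out genes, and 0 were higher, beside 27.6% and 26.5%. In cluster 2, 1 of 8 was higher and 5 lower, beside 25.7% and 30%. The lower calls of HOXB8 and HOXC8 in clusters 0 and 2, and of HOXB6 in cluster 2, rest on 0 UMI there. Cluster 15, a part of the reference, held 69.2% of HOXB6, 69.5% of HOXB8 and 72.5% of HOXC8 UMI. Its part in these calls was not tested, so they do not show a loss particular to clusters 0 and 2. In cluster 3, 0 of 6 were higher and 2 lower, beside 22.1% and 25.2%. In cluster 6, 1 of 6 was higher and 2 lower, beside 20.2% and 21.3%. In mitotic progenitor-like cluster 8 the edgeR test called 0 of 7, beside 15.0% and 12.5%, and 0 had an unadjusted p under 0.05. Of the members not called higher in clusters 0, 1 and 3, HOXA3 in cluster 3 alone had a positive difference with an unadjusted p under 0.05.

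**Figure D3:**
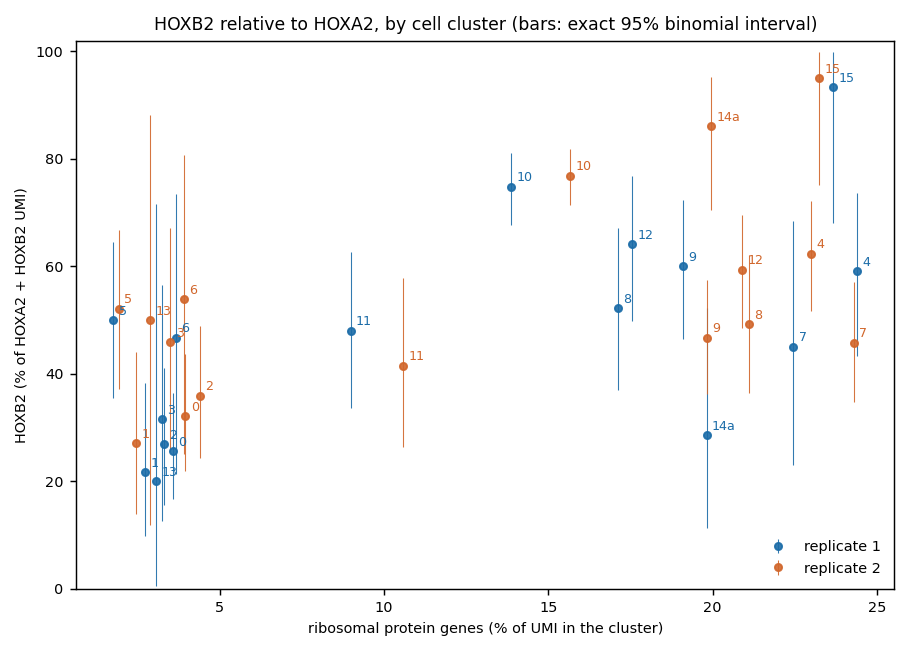
Share of HOXB2 among HOXA2 and HOXB2 UMI, in percent with exact 95% binomial intervals, against the share of UMI in ribosomal protein genes, in percent, for the 16 tested clusters and both libraries. Neural clusters under 10% ribosomal protein UMI lie mostly below those above it, with values of clusters 3, 5, 6 and 13 reaching into the range of the others, and the libraries of cluster 14a lie apart at 28.6% and 86.1%.

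HOXA3 was called higher in progenitor-like clusters 2 and 6, at 28.7 and 36.4 CPM and at 32.8 and 32.0, against 17.3 to 18.2 in the cells outside each. Clusters 6 and 2 were low in HOXB2, so HOXA3 and HOXB2 did not follow the same order of clusters. HOXD3, whose model lies beside HOXD4, was higher in roof plate-like cluster 7, at 8.754 and 9.004 CPM against 4.23 and 4.19 (log2 difference 1.49, SE 0.46, edgeR quasi-likelihood adjusted p = 0.00781), 1 of 8 tested genes where 23.8% of left-out genes were called higher. In cluster 4 it had 1 UMI and was called lower. HOXB3 was called lower in clusters 2 and 7, with 1 and 2 UMI. HOXB6, HOXB8 and HOXC8 were also called lower in some neural clusters with 0 UMI, but there the counts allow no more than bounds of at least 1.42-fold to at least 2.73-fold.

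Mesenchyme-like cluster 15 was led by COL1A1, COL1A2, COL3A1 and LUM, and also by APOA1 and RBP4. It had 35 and 72 cells, 318 HOX UMI and summed HOX levels of 312 and 264 CPM (mean 288 ± 34.2, SD, n = 2). Its HOX UMI came from the middle of the series: paralogs 6 to 8 gave 56.6%, paralogs 9 and 10 16.0%, paralogs 1 to 3 16.7%, paralogs 4 and 5 10.7%, and paralogs 11 to 13 none. The 191 UMI of HOXB and 124 of HOXC left 2 for HOXA and 1 for HOXD.

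HOXC8, which patterns the thorax, stood at 36.9 and 46.9 CPM in cluster 15 against 0.466 and 0.966 in all other cells (log2 difference 6.56). HOXB8 was at 45.4 and 31.7 CPM against 0.932 and 0.552 (6.44). HOXB6 was at 34.1 and 30.5 against 0.559 and 0.690 (6.37). These genes lay in many cells and not in a few, with HOXC8 and HOXB8 each seen in 33 of 107 cells and HOXB6 in 32.

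HOXB7 stood at 28.39 and 13.96 CPM against 0.0932 and 0.621, and passed the filter only through this cluster, so no test is given. HOXB9, which takes part in thoracic and limb position, was at 31.2 and 22.8 against 0.559 and 0.966 (log2 difference 5.77). HOXC6 was at 25.6 and 29.2 against 0.559 and 1.10, without a test because it passed the filter only in clusters 14a and 15. In all, 10 of 14 tested members were higher in cluster 15, the other 4 of them being HOXB3, HOXB4, HOXC4 and HOXC9, where 21.9% of left-out genes were called higher. Each of the 10 was higher in both libraries. HOXB4, HOXB6, HOXB8, HOXB9 and HOXC8, at 0.466 to 1.24 CPM in all other cells, passed the filter here through this cluster and are given without a test. HOXB3, at 5.22 and 4.35 CPM in all other cells, had an edgeR quasi-likelihood adjusted p of 0.000123. Members that passed the filter through their level in this cluster had to differ, so the count is a description. The median log2 difference of the 14 was 4.95, against -0.32 over left-out genes, and TMM scaling moved the median of all genes here from -1.07 to -0.32.

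HOXA2 and HOXA3 were the 2 members called lower in cluster 15, where 28.1% of left-out genes were. HOXA2 had 1 UMI in each library, 2.84 and 1.27 CPM against 33.3 and 32.0 (log2 difference -3.44, SE 0.72, edgeR quasi-likelihood adjusted p = 7.50e-06). HOXA3 had 0 UMI and was at least 7.42-fold lower (adjusted p = 5.03e-05, same test). HOXB2 was not called, at 39.7 and 24.1 CPM against 35.3 and 40.8 (0.37, SE 0.32). HOXB2 thus made up 93.3% and 95% of 15 and 20 paralog 2 UMI there, beside 51.6% and 55.1% over all neural clusters. The 8 HOXA members of paralogs 4 to 13 had 0 UMI, and 3 counts would be 2.63 CPM.

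Levels of other markers moved with this cluster. The 7 epithelium markers summed to 8648 and 8940 CPM with EPCAM, CDH1 and TP63 at 0, and the 9 hepatic or yolk sac endoderm markers to 28086 and 26487 with AFP, ALB, APOA2 and FGB at 0. The 10 neural progenitor markers summed to 3305 and 3752. The mesenchyme markers summed to 35292 and 35813, and TWIST2, POSTN and TBX18 were at 0. GFP, which has a row of its own in the count table, was at 56.8 and 46.9 CPM against 1688 and 1879.55 in all other cells. The part of these in the HOX levels was not tested.

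Cluster 14a, of 27 and 37 cells, was led by PF4, CXCL14, TFF2, TNNC1, CXCL12 and POSTN and had the highest HOX content. It held 405 HOX UMI, at 601 and 1009 CPM (mean 805 ± 288, SD, n = 2), and 34 of 37 members were seen in it. All HOX clusters took part, with 136 UMI of HOXA, 113 of HOXB, 76 of HOXC and 80 of HOXD. Paralogs 1 to 3 gave 29.6% of the UMI, paralogs 4 and 5 33.3%, 6 to 8 20.7%, 9 and 10 13.3% and 11 to 13 2.96%. Paralogs 4 to 13 gave 69.5% in replicate 1 and 70.8% in replicate 2.

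HOXA6 stood at 56.4 and 58.3 CPM in cluster 14a against 0.368 and 0 in all other cells, from 28 UMI in 12 cells. HOXA5, which acts in the neck and lung, was at 56.4 and 80.2 CPM against 0.460 and 0.333 (log2 difference 7.49), from 34 UMI in 24 cells. HOXD9 was at 37.6 and 21.9 against 0.184 and 0.133. In this comparison HOXA5, HOXA6 and HOXD9 passed the low-count filter only through their level in cluster 14a and are given without a test. All lie above every other tested cluster in both libraries.

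HOXD4, which also passed the filter here through cluster 14a and has no test, was at 42.3 and 120 CPM against 0.552 and 0.600. This came from 42 UMI in 17 cells. HOXB5 was at 9.40 and 25.5 against 0.368 and 0.133, also without a test for the same reason. HOXC4, which passed the filter only in clusters 14a and 15 and has no test here, was at 32.9 and 72.9 against 0.460 and 1.27. Replicate 2 was the higher in each of these. In all, 13 of 19 tested members were higher and 0 lower in cluster 14a, where 4.66% of left-out genes were called higher and 5.54% lower. Members that passed the filter through their level in this cluster had to differ, so the count is a description. At an unadjusted p under 0.05, 17 of the 19 passed, and 2710 of 13369 genes. The other 7 called were HOXB3, HOXB4, HOXB6, HOXC6, HOXC8, HOXC9 and HOXD3.

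The count rests on edgeR: DESeq2 called 12, while limma-trend called 0 of the 19 and 0 of all 13369 genes, with 15 HOX genes and 2332 of all genes at an unadjusted p under 0.05. HOXA9 and HOXA10, genes of limb and lumbar level, did not pass the filter. All 13 UMI of HOXA9 and all 10 of HOXA10 came from cluster 14a, in 7 and 5 cells, with both libraries contributing (HOXA9 5 and 8 UMI, HOXA10 5 and 5).

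The libraries of cluster 14a differed in kind. The 8 cardiomyocyte markers summed to 2001 CPM in replicate 1 and 102.02 in replicate 2, with NPPA at 0. HOXB2 made up 6 of 21 paralog 2 UMI in replicate 1 (28.6%, exact 95% interval 11.3 to 52.2) and 31 of 36 in replicate 2 (86.1%, 70.5 to 95.3). HOXA2 was at 70.5 and 18.2 CPM and HOXB2 at 28.2 and 113, and neither was called. GFP was at 1329 and 54.7 CPM.

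Within the cluster, summed marker levels differed between cells with and without HOX genes of paralog 4 or above, though marker-positive cells occurred in both. The 42 cells with a UMI of paralog 4 or above had cardiomyocyte markers at 131 CPM, with a UMI of them in 11 cells, and the 22 cells without had 2595 CPM, with a UMI in 8. A sum of this kind can come from a few cells. The mesenchyme markers summed to 3302 CPM in the former and 2001 in the latter, and the epithelium markers to 3679 and 991. The cells with such a UMI were 14 of 27 in replicate 1 and 28 of 37 in replicate 2. Cardiomyocyte markers were far higher in replicate 1, so the pooled values mix differences between cells with differences between libraries. All these cells share their cluster, and the values are a description. Their part in the HOX levels of the cluster was not tested.

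Set against each other in the joint fit, chosen after their values had been seen, clusters 14a and 15 differed in HOXA and HOXD genes. Of 16 tested members, 6 were higher in cluster 14a, where 13.9% of left-out genes were, and 1 was lower, where 15.8% were. HOXA5, HOXA6, HOXD4 and HOXD9 passed the filter of this fit through cluster 14a and HOXB8 through cluster 15, so the counts are a description. HOXA5 and HOXA6 had 34 and 28 UMI in cluster 14a and 0 in cluster 15, at least 26.5-fold and 21.8-fold higher. HOXA3, with 20 UMI against 0, was at least 15.6-fold higher, and HOXD9, with 14 against 0, at least 10.9-fold. HOXD4 had 42 against 1 UMI (log2 difference 5.81) and HOXA2 20 against 2 (3.77, SE 0.80).

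HOXB8 was the gene lower in cluster 14a, at 4.70 and 7.29 CPM against 45.4 and 31.7 (log2 difference -3.27). The remaining HOXB and HOXC genes missed the threshold, from HOXB9 at -1.56 (SE 0.82) to HOXB4 at 1.23 (SE 0.81), which does not show equal levels. In HOXC8, for example, cluster 14a had 23.5 and 43.7 CPM and cluster 15 had 36.9 and 46.9 (-1.01, SE 0.62).

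**Figure D4:**
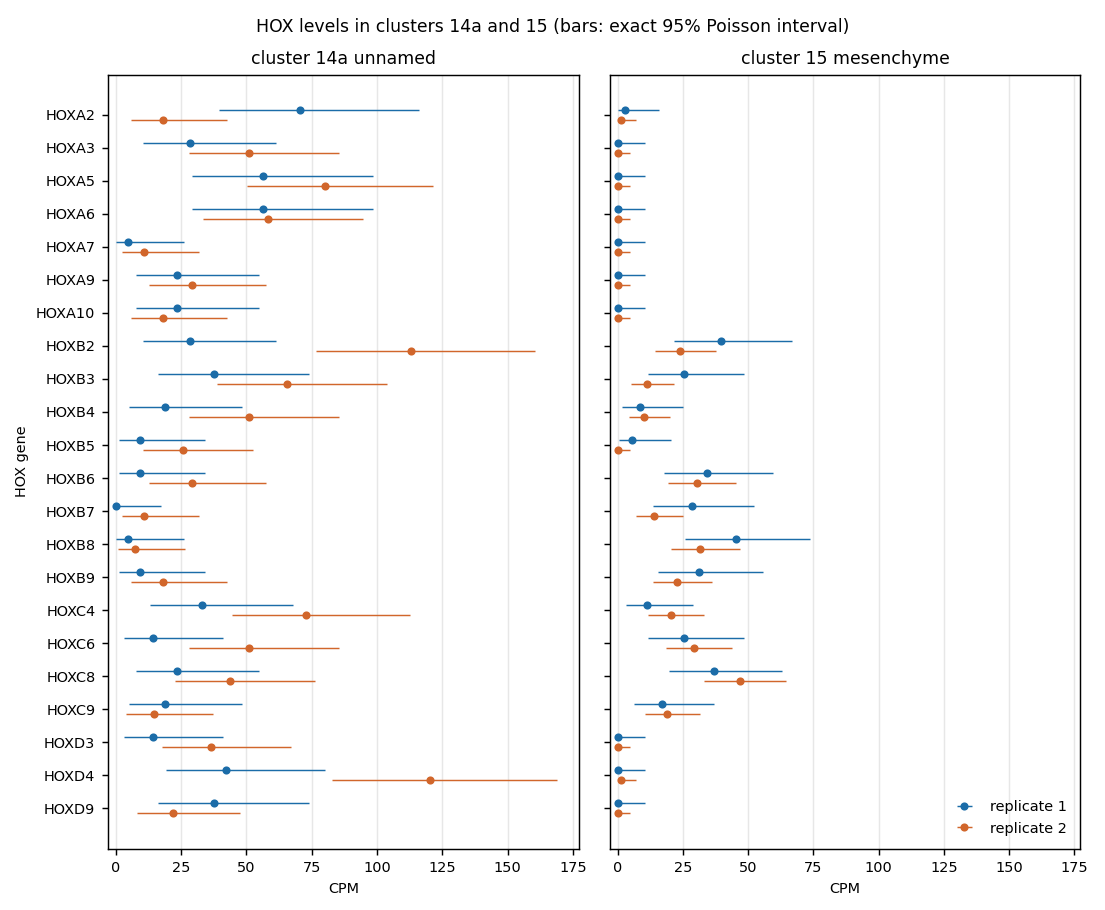
CPM on a linear axis of the 22 HOX genes with at least 10 UMI in clusters 14a and 15, with 1 point per library and exact 95% Poisson intervals as bars. HOXA5, HOXA6, HOXD4 and HOXD9 are high in cluster 14a and at or near 0 in cluster 15, whereas HOXC8 is present in both.

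Single cells were also described by their highest paralog. After thinning to 2000 UMI, 17 of 26 and 28 of 34 cells of cluster 14a had a HOX UMI (65.4% and 82.4%), and 13 of 33 and 22 of 64 cells of cluster 15 (39.4% and 34.4%). In cluster 14a the highest paralog seen was 1 to 3 in 23.1% and 11.8% of cells, 4 or 5 in 19.2% and 32.4%, 6 to 8 in 7.69% and 14.7%, 9 or 10 in 15.4% and 17.6%, and 11 to 13 in 0 and 5.88%. In cluster 15 it was 1 to 3 in 9.09% and 7.81%, 4 or 5 in 0 cells, 6 to 8 in 18.2% and 15.6%, and 9 or 10 in 12.1% and 10.9%. Without thinning, up to 12 and 19 different HOX genes were seen in 1 cell of cluster 14a, and up to 7 and 6 in cluster 15.

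**Figure D5:**
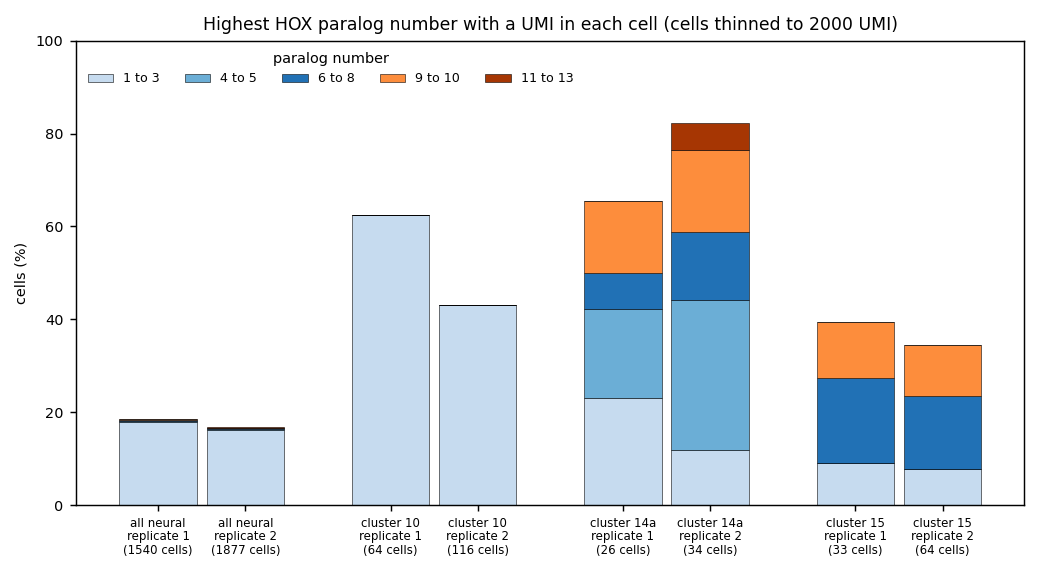
Percent of cells whose highest HOX paralog number with a UMI falls in each band, by library, for all neural clusters, cluster 10, cluster 14a and cluster 15, each cell thinned to 2000 UMI, with the number of cells under each bar. Among the 285 and 314 neural cells with a HOX UMI the highest paralog was 1 to 3 in 275 and 305, and clusters 14a and 15 reach paralogs 9 and 10.

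Small groups that were not tested also held trunk-level members. The 27 epithelium-like cells of cluster 18 had 9 UMI of HOXB9 in 7 cells, 4 in replicate 1 and 5 in replicate 2. Among the 11 binucleate trophoblast-like cells HOXB8 had 6 UMI in 2 cells and HOXC9 4 UMI in 4 cells, all from replicate 1. The 16 trophoblast-like cells had 3 UMI of HOXB7. Cluster 14b of 36 cells, with hepatic and neural progenitor markers, had 32 HOX UMI, 11 of them HOXB2, and cluster 16, of 68 cells from replicate 2 only, had 28.

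As a joint question, all 16 HOX genes tested varied across the 16 clusters (edgeR quasi-likelihood F test), where 96.1% of left-out genes did. HOXA5, HOXA6, HOXD4 and HOXD9 passed the filter of this fit through their level in cluster 14a, and HOXB8 through cluster 15. Members that passed in this way had to vary across clusters, so the count is a description. DESeq2 called 7 of the 16, where it called 10883 of all 11756 genes.

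The HOX cofactors were far more abundant than the HOX genes and followed another order. MEIS2 was highest in neuron-like cluster 5, at 2873 and 2929 CPM against 419 and 370 in all other cells (log2 difference 2.93, SE 0.13). MEIS1 at 1366 and 1394 and PBX3 at 916 and 1119 CPM peaked there too, and 4 of 9 cofactors were higher and 0 lower, beside 24.2% and 28.3% of left-out genes. In cluster 10, 7 of 9 were higher and 2 lower, beside 24.0% and 25.8% of left-out genes, with MEIS2 at 1668 and 1123 and MEIS3 at 70.0 and 55.2 CPM. In cluster 15, rich in HOXB and HOXC, 4 of 9 were lower, beside 28.1% of left-out genes, with MEIS1 at 11.4 and 12.7 CPM against 381 and 327 (-4.06, SE 0.29, edgeR adjusted p = 8.36e-42), and PKNOX2 was the 1 higher, beside 21.9%. In cluster 14a only MEIS3 was higher, at 65.8 and 61.9 CPM against 23.5 and 23.1, and only PBX3 lower.

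Of the 20 signals and upstream factors, CDX4 and TBXT had 0 UMI, CDX1 1 and CDX2 12. ALDH1A2, which makes retinoic acid, was highest in cluster 14a at 84.6 and 36.4 CPM against 1.84 and 1.67 (log2 difference 5.10, SE 0.91, edgeR adjusted p = 1.28e-06). RARB, a retinoic acid receptor, stood there at 132 and 175 against 54.9 and 43.4. Its highest cluster was floor plate-like cluster 13, at 301 and 129 CPM. ALDH1A2, RARB and WNT5A were 3 of 10 tested inputs higher in cluster 14a, beside 4.66% of left-out genes, and WNT3A alone was lower, beside 5.54%. EGR2, which acts on HOXA2 and HOXB2 in the hindbrain, was highest in progenitor-like cluster 1 at 12.7 and 10.1 CPM against 1.93 and 1.17 (2.51, SE 0.55, edgeR adjusted p = 2.11e-05). In cluster 1 HOXA2 stood at 40.9 and 38.8 CPM and HOXB2 at 11.3 and 14.4.

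Of 14 chromatin regulators, which hold HOX genes silent or keep them open, 2 were higher and 6 lower in cluster 15, beside 21.9% and 28.1% of left-out genes, with EZH2 at 68.1 and 86.3 CPM against 251 and 226. In cluster 14a 0 were higher and KMT2A alone was lower, beside 4.66% and 5.54%, and in cluster 10 4 were higher and 5 lower, beside 24.0% and 25.8%. Of 16 forebrain and midbrain genes, DMBX1 had 0 UMI. In cluster 15 3 of 7 tested were lower, SIX6, LMX1B and OTX2, each with 0 UMI, beside 28.1% of left-out genes, and in cluster 10 4 of 9 were higher, beside 24.0%, with LHX2 at 31.3 and 29.95 CPM and SIX6 at 55.2 and 55.2. None of these lists was compared with other lists.

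Among genes left out of the clustering with at least 50 CPM in some cluster, those most like the summed level of paralogs 1 to 5 over 16 clusters in both libraries were MEIS3 and PARVB with a Pearson correlation of 0.70 each, MED21 with 0.67, OXA1L and GADD45G with 0.66 and SHISA9 with 0.62. For paralogs 6 to 10 they were PRDM6 with 0.97, PLPP2 with 0.95, TGFBI with 0.94, and ANGPTL6, CTSZ and CGNL1 with 0.92. These are the highest of 3892 genes on log2(CPM + 10), over 32 points that share libraries and depth. Each gene of the second set was highest in cluster 14a or 15.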

How the data were processed

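Members, lists and tests were chosen with earlier results of these data known. The authors deposited raw UMI counts, made with Cell Ranger on bosTau9 and handled with R 4.1.2 and Seurat 4.3.0 per the submitters' processing notes; the filter and strand setting are not given in the sources used here. Cells with at least 500 genes, 1000 UMI and at most 15% mitochondrial counts were kept, and Scrublet removed 7 doublets (0.168%), so doublets remain possible. Clustering (scanpy 1.11.5, 2000 variable genes, 30 components, 15 neighbours, Leiden resolution 1.0) left out 8902 genes: HOX, the lists, GFP and a random 50% of other genes that were no marker. One mixed cluster was split at resolution 0.5. The naming rule was set after clusters had been seen: at least 3 markers at 20 CPM and 25% of their highest level, unnamed with 5 markers of each of several classes, the neural classes counted as 1, or over 90% of cells from 1 library. Counts per cluster and library were set against all other cells of the same library with edgeR 4.0.16 (TMM, filterByExpr, library as a term, 1 residual degree of freedom moderated across genes). Both arms of a contrast come from the same libraries, which pairs them. Direct comparisons and the test across clusters used 1 joint fit with 15 residual degrees of freedom. Calls are at adjusted p under 0.05. On simulated data 4-fold changes were recovered in 90% in each of clusters 10, 14a and 15, and 2-fold changes in 50%, 40% and 48%, of 100 changed genes at each size among 13547, 13314 and 13391 genes. False calls numbered 2, 6 and 7. Changed genes were drawn only from those with at least 5 expected counts in the smaller library of the cluster. The shares therefore do not hold for HOX genes sparser than this. Named genes were up to 6 rises and 3 falls per cluster at 10 CPM or more, and the gene with the most UMI per paralog number; others were added to complete counts of 5 or fewer or direct comparisons, after values were seen. All 37 symbols matched RefSeq (ARS-UCD2.0), used for names and neighbours. Intervals cover counting error only. Some genes are not reported here.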

Additional observations from a re-analysis of the deposited data

How the results depend on the processing

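Calls against all other cells numbered 36 higher and 27 lower over the 16 clusters. Higher calls fell to 19 with limma-trend, and to 13 over clusters of at least 50 cells in each library, which leaves out clusters 14a and 15. Lower calls fell to 10 with DESeq2 and to 10 with the mean of the other clusters as reference, under which higher calls rose to 46 and 41 of the 63 calls were shared; the causes were not tested. In cluster 14a the 13 higher calls became 0 with limma-trend, which called no gene there, and ranged from 10 to 16 under the other settings. In cluster 15 the number of higher calls was 10 under each setting, though with the mean reference HOXB7 was not tested and 10 of the 12 calls were shared, and the 2 lower ones became 1 with the mean reference. Without the replicate block, that is without library as a term, 38 were higher and 31 lower, and 61 of 63 calls were shared. The test across clusters called 7 of 16 with DESeq2. Shares of cells with a HOX UMI followed depth: without thinning the mean shares were 37.2% in neural clusters, 87.7% in cluster 14a and 81.7% in cluster 15, and at 1000 UMI 9.35%, 47.9% and 26.7%, against 17.6%, 73.9% and 36.9% at 2000. Of 40 named gene and cluster pairs, 0 turned direction; 12 lost their call with limma-trend, 11 of 39 with DESeq2, 7 of 37 with the mean reference, and 2 each without TMM, the filter or the block. Leaving out a library gives values with no test, since no residual degrees of freedom remain: 10 of the 40 pairs moved by more than the spread without replicate 1 and 13 without replicate 2, and summed HOX levels ranged from 105.7 to 107.5 CPM in neural clusters, 601 to 1009 in cluster 14a and 264 to 312 in cluster 15, and shares from 16.7% to 18.5%, 65.4% to 82.4% and 34.4% to 39.4%. The fit without TMM and that without shared barcodes were chosen after seeing the data. Depth limits members under 10 UMI, which were not tested.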
